A study of Mus musculus with 16 samples.

Results

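The receptors described here are 236 odorant receptor genes of the mouse numbered Olfr983 to Olfr1318, nearly all of which lie in a large array of receptor genes on chromosome 2. They were taken as every probe set whose symbol is exactly Olfr and a number in that range, with 8 receptors left out by the rule (Olfr1093, Olfr1183, Olfr1193, Olfr1206, Olfr1212, Olfr1213, Olfr1279 and Olfr1284). They make up 236 of the 1080 odorant receptor probe sets and of the 22206 probe sets tested, and each has 1 probe set. RefSeq places 232 of them on chromosome 2, of which 199 (Olfr987 to Olfr1274) form a first stretch and 33 (Olfr1275 to Olfr1318) a second one far from it. The other 4, Olfr983 to Olfr986, lie on chromosome 9, so the number range is not quite the same as the chromosome 2 array.

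Odorant receptors are G protein-coupled receptors of the cilia of olfactory sensory neurons. Each mature neuron transcribes 1 receptor gene from 1 allele, so the signal of a receptor in a sorted fraction follows the neurons that chose it as well as the RNA that each of them holds, and fewer cells of a type and less RNA per cell cannot be told apart in such samples. Related receptors often sit side by side in the genome and are grouped in families by sequence, called here by the MOR names that RefSeq lists as synonyms. S100a5 encodes a calcium-binding protein of these neurons whose expression depends on neuronal activity, which is why its reporter is used to collect neurons that an odor has activated.

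Cells came from the olfactory mucosa of 24 S100a5-tauGFP mice of both sexes, aged 7 to 12 weeks, in 8 pools of 3 animals. In 4 pools the mice received 1-pentanethiol, a thiol odorant, and in 4 pools filtered air as vehicle, in pulses of 10 s every 20 min that began after 26 of 40 h in a clean air chamber. Every pool was sorted by flow cytometry into GFP+ and GFP- cells, which gave 16 Clariom S arrays in the groups odor GFP+, odor GFP-, vehicle GFP+ and vehicle GFP-, each with n = 4. All animals of all groups carry the reporter, the pools hide differences between animals, and the sort follows S100a5 rather than any receptor. The odor is called 1-pentanethiol here, as in the title and in the labels of every sample, although the design text says bourgeonal.

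Signals are given on a log2 scale, as deposited, so a difference of 1 is a 2-fold ratio. The median of the negative control entries, taken as the level of nonspecific signal, was 5.99 to 6.48 on 15 of the arrays and 7.28 on vehicle GFP+ replicate 2, which stood apart. S100a5 itself followed the sort, with GFP+ minus GFP- differences of 0.99 in the odor pools and 0.87 in the vehicle pools (limma, adjusted p = 7.79e-06 and 3.51e-05). All 5 neutrophil markers were lower in GFP+ cells in both sorts. Their summed signal was 890 to 4090 in GFP+ cells against 319000 to 576000 in GFP- cells of the odor pools, and 866 to 2250 against 442000 to 579000 in the vehicle pools. All 3 measured basal and cycling cell markers and 4 of 5 markers of immature neurons were also lower in GFP+ cells in both sorts, with summed signals of immature markers of 60400 to 69900 against 73600 to 94500 in the odor pools and of 61200 to 74700 against 77600 to 104000 in the vehicle pools. Of the 8 markers of mature neurons, 2 were higher in GFP+ cells in the odor sort (Ano2 and Cngb1, by 0.48 and 0.65) and 1 in the vehicle sort (Ano2, by 0.36), and none was lower, with summed signals of 1470000 to 1540000 in GFP+ and 1360000 to 1430000 in GFP- cells of the odor pools and of 1350000 to 1510000 and 1370000 to 1400000 in the vehicle pools. The sums did not overlap in the odor pools and did in the vehicle pools. Of 4 sustentacular cell markers, Cyp1a2 alone was lower in the odor sort and none passed in the vehicle sort, and the 1 erythroid marker measured, Alas2, was lower in both, by -2.23 and -2.50. The part of these other cells in the receptor differences was not tested.

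Most of the receptors were measured above the nonspecific level. Of the 236, 204 had means above it in all 4 groups, 16 were under it in all 4, and 16 were mixed. The median signal over the receptors averaged 10.18 ± 0.16 in odor GFP+, 9.81 ± 0.24 in odor GFP-, 10.16 ± 0.13 in vehicle GFP+ and 9.85 ± 0.09 in vehicle GFP- arrays (SD, n = 4). The 6 receptors with the highest mean signal were Olfr1264, Olfr1222, Olfr1197, Olfr1247, Olfr1200 and Olfr1219, all of which lie in the first stretch, from Olfr1197 to Olfr1264. Signals of different probe sets depend on their probes, and this is no order of transcript amounts.

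The first question is which receptors were enriched or depleted in the GFP+ fraction, that is, in the cells with more of the activity reporter. In the odor pools 104 of 236 receptors (44.1%) were higher in GFP+ cells and 67 (28.4%) were lower, at a limma adjusted p under 0.05 over all probe sets. Of all 22206 probe sets, 11.3% were higher and 11.9% were lower. In the vehicle pools 99 receptors (41.9%) were higher in GFP+ cells and 59 (25%) lower, against 9.34% and 11.8% of all probe sets. The 836 odorant receptors outside the number range had 286 higher and 226 lower in the odor sort, and 298 higher and 201 lower in the vehicle sort. Calls in both directions are thus also frequent among receptors elsewhere, and no test of a difference between the sets was made.

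The receptors spread far in both directions around a small median. Their GFP+ minus GFP- difference in the odor pools had a median of 0.61, with quartiles of -1.04 and 1.55 and a range of -5.45 to 4.22. In the vehicle pools the median was 0.38, the quartiles -0.86 and 1.52 and the range -4.99 to 4.00. The receptors outside the range had medians of 0.19 and 0.26, and all probe sets 0.13 and 0.11. Within single pools the median over the 236 receptors was 0.30, 0.78, 0.36 and 0.82 in odor pools 1 to 4, and 0.57, 0.36, 0.46 and 0.47 in vehicle pools 1 to 4, and so was positive in every pool on the deposited scale. The size of the median moved with the scaling. When all arrays were given 1 common median it was 0.94 in the odor and 0.73 in the vehicle sort, and with receptor medians set equal it was 0.55 in the odor and 0.15 in the vehicle sort. Arrays of the 2 fractions did not overlap for 162 receptors (68.6%) in the odor sort and for 144 (61%) in the vehicle sort, against 26.8% and 23.7% of all probe sets. The shares among the receptors outside the range were 58.3% and 52.9%. Without vehicle GFP+ replicate 2, 97 receptors were higher and 54 lower in the vehicle sort, and the median was 0.48.

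Olfr1132, of family MOR177, had the largest positive difference in both sorts. Its signals were 11.04, 10.33, 10.68 and 11.42 in odor GFP+ and 6.83, 6.42, 7.22 and 6.10 in odor GFP- cells, and 10.47, 10.38, 10.84 and 11.16 in vehicle GFP+ and 6.99, 6.50, 6.13 and 7.22 in vehicle GFP- cells. All 8 GFP+ arrays lay above all 8 GFP- arrays, which were close to the nonspecific level. The difference was 4.22 ± 0.29 (SE) in the odor pools, an 18.7-fold ratio, and 4.00 ± 0.29 in the vehicle pools, 16-fold (limma, adjusted p = 8.12e-09 and 1.48e-08).

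Olfr1220 was bright in both fractions and still separated them. It had 15.45, 14.70, 14.60 and 15.56 in odor GFP+ against 12.19, 11.30, 11.53 and 11.21 in odor GFP- cells, and 15.58, 14.91, 15.59 and 15.31 in vehicle GFP+ against 12.17, 11.51, 12.51 and 11.96 in vehicle GFP- cells. The groups did not overlap, and the difference was 3.52 ± 0.27 in the odor and 3.31 ± 0.27 in the vehicle pools (limma, adjusted p = 3.31e-08 and 6.89e-08). Olfr1037 was higher by 2.90 ± 0.27 in the odor and by 3.38 ± 0.27 in the vehicle sort, with arrays of 13.24 to 14.10 against 10.29 to 11.14 and of 13.14 to 14.27 against 9.93 to 10.82. Olfr1151, also of family MOR177, was higher by 3.42 and 3.10 in the odor and vehicle sorts.

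Olfr1105 was among the highest in both sorts with a difference of 2.88 in the odor and 2.93 in the vehicle pools, but its GFP- arrays, at 4.58 to 4.91 and 4.57 to 4.94, lay under the nonspecific level. Its difference therefore depends on where that level lies. With each array raised to its own nonspecific level, a bound added after seeing the data, Olfr1105 was at least 2.99-fold higher in the odor and at least 2.96-fold higher in the vehicle sort. Among the receptors called higher, the GFP- mean was at or under the nonspecific level for 7 in the odor and 6 in the vehicle sort, and among those called lower the GFP+ mean was at or under it for 6 in each sort. For 7 of these receptors in the odor and 4 in the vehicle sort the means of both fractions were.

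The other receptors named as highest were Olfr1263, Olfr1262, Olfr1195, Olfr1205 and Olfr1301 in the odor sort, with differences of 3.97, 3.40, 3.25, 2.84 and 2.82, and Olfr1111, Olfr1099, Olfr1100, Olfr1094 and Olfr1134 in the vehicle sort, with 2.98, 2.79, 2.76, 2.61 and 2.56. All of them passed the threshold in both sorts. Olfr1263, Olfr1262, Olfr1195 and Olfr1205 had smaller differences in the vehicle sort, of 2.56, 2.18, 1.76 and 1.52 in the same order.

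The largest differences were those of depleted receptors. Olfr1042, of family MOR185, had 6.35, 6.01, 6.23 and 6.22 in odor GFP+ against 11.20, 11.92, 11.29 and 12.18 in odor GFP- cells, and 7.51, 7.10, 6.87 and 6.06 in vehicle GFP+ against 11.47, 11.76, 11.57 and 11.75 in vehicle GFP- cells. In odor GFP+ cells it was thus no brighter than the negative controls. Its difference was -5.45 ± 0.26 in the odor and -4.75 ± 0.26 in the vehicle pools (limma, adjusted p = 1.43e-10 and 6.24e-10). The odor value has only a bound, at least 38.5-fold lower (-5.27) with each array raised to its own nonspecific level, so its place among the lowest receptors is not settled.

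Olfr1140 had 8.29, 7.50, 9.22 and 6.07 in odor GFP+ against 13.09, 13.62, 12.28 and 13.14 in odor GFP- cells, and 8.55, 9.35, 8.77 and 5.54 in vehicle GFP+ against 12.54, 13.74, 12.53 and 13.35 in vehicle GFP- cells. Replicate 4 was the lowest of the GFP+ arrays under both exposures, and the GFP+ values were more scattered (SD 1.34 and 1.71) than the GFP- values (SD 0.55 and 0.60). Its difference was -5.26 ± 0.70 in the odor and -4.99 ± 0.70 in the vehicle pools (limma, adjusted p = 2.04e-05 and 3.69e-05). It belongs to the same family, MOR177, as Olfr1132, the receptor with the largest difference in the other direction.

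Olfr1030 had 9.37, 8.81, 8.48 and 7.23 in odor GFP+ against 13.39, 13.53, 12.99 and 13.49 in odor GFP- cells, and 8.70, 9.51, 9.24 and 8.43 in vehicle GFP+ against 13.30, 13.20, 13.00 and 14.04 in vehicle GFP- cells. Its GFP+ arrays were all above the nonspecific level and all below its GFP- arrays. The difference was -4.88 ± 0.36 in the odor and -4.41 ± 0.36 in the vehicle pools (limma, adjusted p = 1.93e-08 and 6.28e-08). Olfr1123, Olfr1178, Olfr1297, Olfr1043 and Olfr1184 had differences of -5.05 to -4.17 in the odor sort and of -4.67 to -4.21 in the vehicle sort. Olfr1002 and Olfr1176 were among the 10 lowest in the odor sort, at -4.28 and -3.96, and Olfr1278 and Olfr1243 among those in the vehicle sort, at -4.14 and -3.80. The GFP+ mean was under the nonspecific level for Olfr1002 in the odor sort, which was at least 16.1-fold lower, and for Olfr1184 in the vehicle sort, at least 15.6-fold lower. Single arrays carried part of several of these sizes. Olfr1243 had 5.29 in vehicle GFP+ replicate 4 and 8.50 to 9.52 in the other 3 arrays, and without it the vehicle sort difference was -2.86. Without the same array the vehicle sort difference was -4.15 for Olfr1140, -4.02 for Olfr1123 and -3.89 for Olfr1043, and without odor GFP+ replicate 4 the odor sort difference of Olfr1178 was -3.82, against -4.99, -4.67, -4.49 and -4.80 with all arrays. All of these still passed. In each case the value on the array left out lay under that array's nonspecific level. This level was 6.38 in vehicle GFP+ replicate 4 and 6.36 in odor GFP+ replicate 4. The sizes with all arrays thus depend in part on where the level lies.

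**Figure D1:**
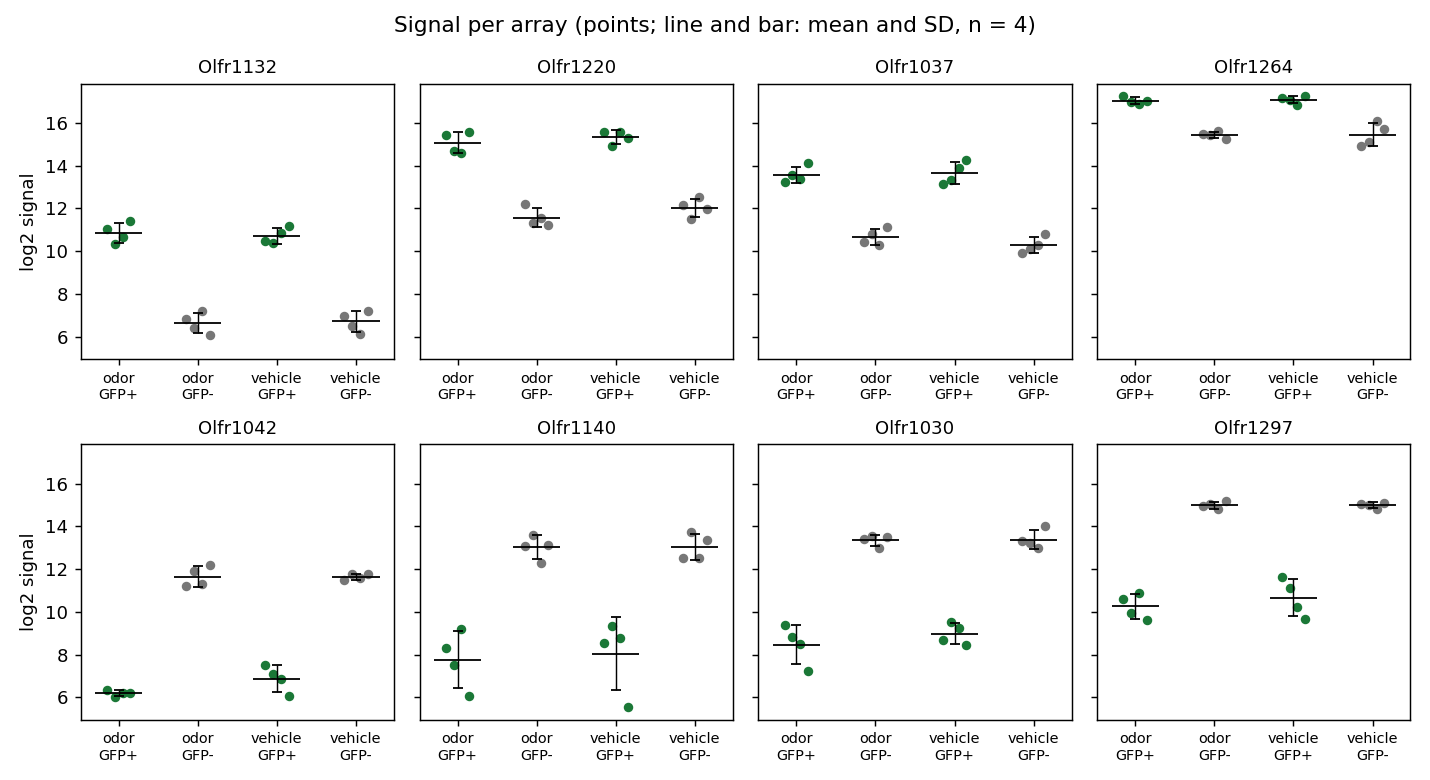
Log2 signal of 8 receptors on each of the 16 arrays, by group (odor GFP+, odor GFP-, vehicle GFP+, vehicle GFP-). Points are arrays, and the line and bar are the mean and SD (n = 4). In the top row the GFP+ arrays lie above the GFP- arrays and in the bottom row below them, in the odor and the vehicle pools alike.

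The sorts of the 2 exposures used separate animals and arrays, and gave much the same order of receptors. Of the 236, 88 were higher in GFP+ cells in both sorts (37.3%, against 4.22% of all probe sets) and 55 were lower in both (23.3%, against 10.3%). Among the 836 receptors outside the range, 255 were higher and 187 lower in both, so such calls are frequent among receptors elsewhere too. None of the 236 was called in opposite directions, against 0.0225% of all probe sets. This count follows from the choice of members. The left-out receptors Olfr1193 and Olfr1279 were called higher in the odor sort, by 2.14 and 1.9, and lower in the vehicle sort, by -1.2 and -1.04. The 0 is thus no finding about the region. A call in the odor sort alone was made for 16 higher and 12 lower receptors, and in the vehicle sort alone for 11 higher and 4 lower ones (Olfr1137, Olfr1200, Olfr1260 and Olfr1280). No call was made in either sort for 50. Across the 236 receptors the odor and vehicle differences correlated with r = 0.954 and rho = 0.935, a description over probe sets that share an array design and nonspecific signal.

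**Figure D2:**
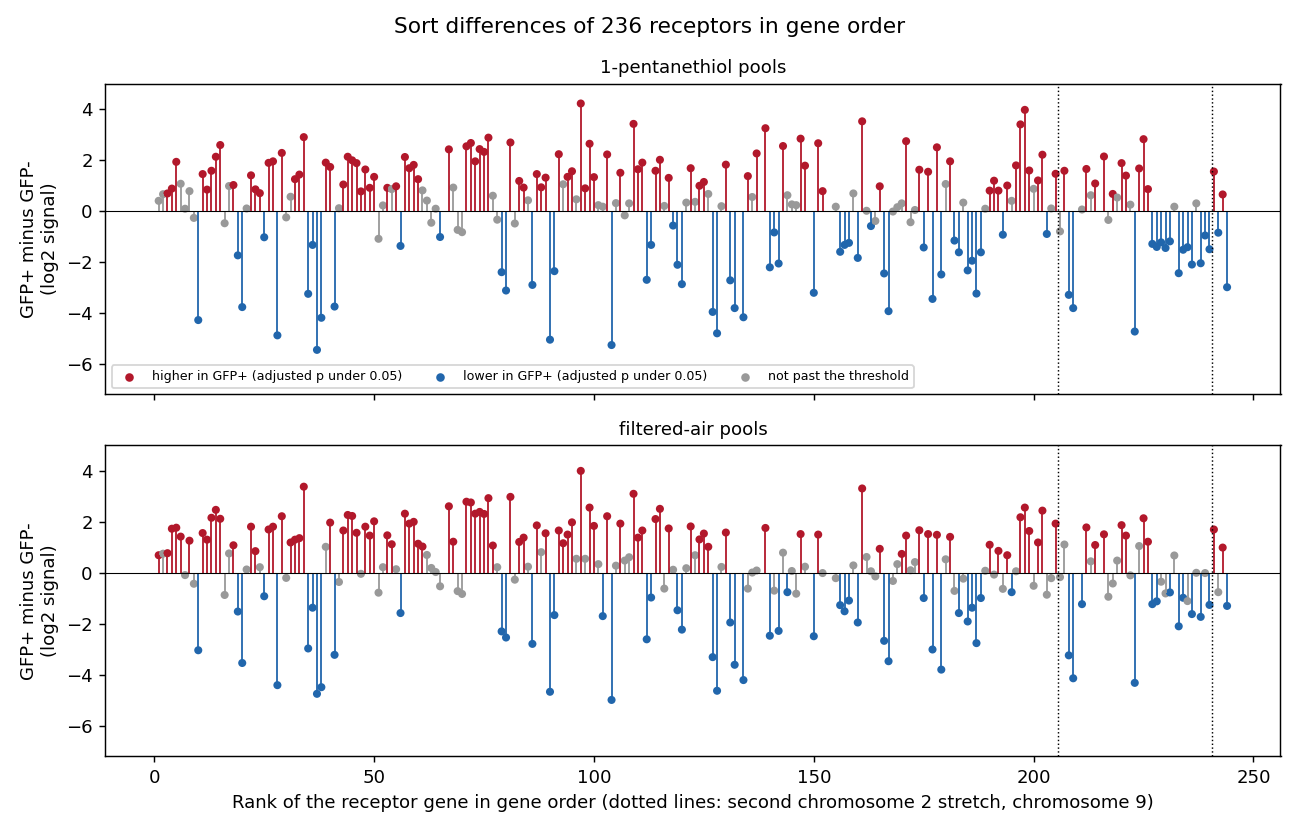
GFP+ minus GFP- difference (log2 signal) of each receptor, in the order of the genes, in the 1-pentanethiol pools (top) and the filtered-air pools (bottom). Red is higher and blue lower in GFP+ cells at a limma adjusted p under 0.05, grey is neither, and gaps are the 8 receptors left out; enriched and depleted receptors lie intermingled, with a run of depleted ones at the end of the second chromosome 2 stretch.

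Along the chromosome, neighbouring receptors were only weakly alike. Over 230 pairs of adjacent receptors the vehicle sort differences correlated with r = 0.196 and the odor sort differences with r = 0.179, and over 228 pairs that were 2 steps apart with r = 0.0171 and 0.00864. In the vehicle sort both members of 67 adjacent pairs were called in the same direction and those of 30 in opposite directions. Of the 232 receptors on chromosome 2, 97 were higher and 58 lower in this sort. The split that unrelated neighbours would give was not computed, so nothing is read from these pairs. Pairs were formed among the receptors kept, so some, such as Olfr1189 and Olfr1195, lie on either side of a left-out receptor. The clearest run was the end of the second stretch, Olfr1305 to Olfr1318. Of its 13 receptors, 0 were higher and 11 lower in the odor sort, and 0 higher and 7 lower in the vehicle sort, with median differences of -1.42 and -0.98. In the other direction, the 20 receptors from Olfr1046 to Olfr1084 had 14 higher and 2 lower in the odor sort and 13 higher and 2 lower in the vehicle sort, with medians of 1.00 and 1.47. These windows were picked by their values and are a description.

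Receptors of 1 family often sorted apart. A family name was available for 223 of the 236 receptors, in 49 families. Over the 206 receptors of the 32 families with 2 or more members, 29.2% of the variance of the odor sort difference and 25.8% of that of the vehicle sort difference lay between families, where 32 groups of unrelated receptors would give 15.1% on average, and no test was made. Of 18 families with at least 5 members, 11 held receptors called in both directions in the vehicle sort. MOR177, with 11 receptors, spanned 8.99 on the log2 scale, between Olfr1140 at -4.99 and Olfr1132 at 4.00, and had 7 higher and 1 lower in each sort.

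A few families leaned 1 way. MOR225, with 11 receptors from Olfr1178 to Olfr1208, had 1 higher and 8 lower in each sort and medians of -2.21 in the odor and -2.28 in the vehicle sort. MOR245, with 19 receptors in the second stretch, had 2 higher and 13 lower in the odor sort and 0 higher and 9 lower in the vehicle sort. This family takes in the run of depleted receptors at the end of that stretch, so the run and the family's lean are not separate results. MOR203, MOR179 and MOR187, with 6, 5 and 5 receptors, had 3, 3 and 5 higher in the odor sort and 5, 4 and 4 in the vehicle sort, and none lower in either. MOR174, with 12 receptors, was split into 5 higher and 5 lower in the odor sort and 5 higher and 4 lower in the vehicle sort.

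**Figure D3:**
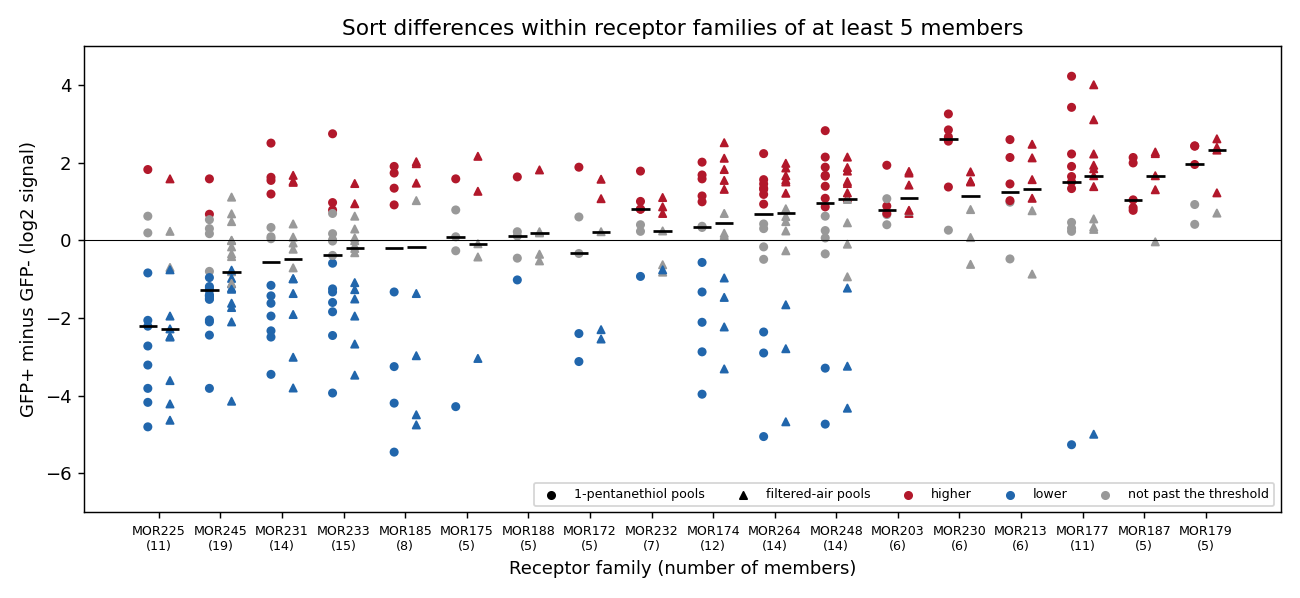
GFP+ minus GFP- difference (log2 signal) of the receptors of the 18 families with at least 5 members, ordered by vehicle sort median; circles are 1-pentanethiol pools, triangles filtered-air pools, and black lines medians. Red is higher and blue lower in GFP+ cells at a limma adjusted p under 0.05 and grey is neither; most families hold receptors on both sides of 0, while all called points of MOR203, MOR213, MOR230, MOR187 and MOR179 lie above it.

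Receptors with near-identical coding starts are shown next, since such starts can go with opposite results. Only these starts were compared. The rest of each gene and the proteins were not, so a shared start does not show how alike 2 receptors or their probe sets are. The sequences are the first 50 coding bases of each gene, from RefSeq on GRCm38.p6, 5′ to 3′ on the coding strand, and capitals mark bases that differ from the first sequence of each set. The array files name no genome build, and the probe sequences were not used here, so how far the probes of such genes share signal was not tested. Members of family MOR248 in the second stretch were Olfr1294 (chr2:111538238-111538287, minus strand), Olfr1297 (chr2:111622023-111622072, minus strand) and Olfr1298 (chr2:111645946-111645995, minus strand), with 48 and 45 of 50 bases of the first shared by Olfr1297 and Olfr1298.
Olfr1294: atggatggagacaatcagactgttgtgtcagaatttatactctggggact
Olfr1297: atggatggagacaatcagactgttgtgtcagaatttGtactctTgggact
Olfr1298: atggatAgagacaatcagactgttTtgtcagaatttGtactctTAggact

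These 3 receptors sorted in opposite directions. Olfr1297 had GFP+ minus GFP- differences of -4.34, -5.11, -3.93 and -5.56 in odor pools 1 to 4 and of -3.44, -3.88, -4.55 and -5.41 in vehicle pools 1 to 4. Olfr1294 had 0.59, 2.13, 0.80 and 2.06 in the odor pools and 1.91, 1.60, 0.71 and 1.64 in the vehicle pools. Olfr1298 had 1.55, 1.76, 1.22 and 2.14 in the odor pools and 0.76, 0.67, 0.97 and 1.83 in the vehicle pools. Every pool thus put Olfr1297 below 0 and both relatives above it, with limma adjusted p = 1.13e-08 and 3.29e-08 for Olfr1297 in the odor and vehicle sorts, 0.000729 and 0.000447 for Olfr1294, and 0.00479 and 0.0666 for Olfr1298, which missed the threshold in the vehicle sort.

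Family MOR234 lies near the end of the first stretch and is shown because all 3 of its members were enriched in the odor sort. They are Olfr1262 (chr2:90002408-90002457, plus strand), Olfr1263 (chr2:90014932-90014981, plus strand) and Olfr1261 (chr2:89993395-89993444, plus strand), and Olfr1263 and Olfr1261 each share 49 of 50 bases with Olfr1262.
Olfr1262: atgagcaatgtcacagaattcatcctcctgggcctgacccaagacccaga
Olfr1263: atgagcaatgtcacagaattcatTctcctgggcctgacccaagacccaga
Olfr1261: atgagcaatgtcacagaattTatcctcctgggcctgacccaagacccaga

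Olfr1262 had 3.00, 3.34, 3.82 and 3.45 in odor pools 1 to 4 and 1.66, 2.48, 2.37 and 2.22 in vehicle pools 1 to 4. Olfr1263 had 3.58, 3.04, 4.79 and 4.46 in the odor and 2.57, 1.92, 3.23 and 2.52 in the vehicle pools. Olfr1261 had 1.08, 1.79, 1.97 and 2.29 in the odor pools, and 0.30, 0.86, -0.87 and -0.04 in the vehicle pools, where it did not pass (limma, adjusted p = 0.919). The odor pools lay above the vehicle pools without overlap for Olfr1262 and Olfr1261, and overlapped for Olfr1263.

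Family MOR225, which leaned to the GFP- fraction, is shown by 3 members of high signal or similar coding start. They are Olfr1197 (chr2:88729548-88729597, minus strand), Olfr1196 (chr2:88701278-88701327, minus strand) and Olfr1200 (chr2:88768264-88768313, minus strand), which share 50 and 46 of 50 bases with Olfr1197.
Olfr1197: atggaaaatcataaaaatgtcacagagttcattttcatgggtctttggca
Olfr1196: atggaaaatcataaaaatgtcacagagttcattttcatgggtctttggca
Olfr1200: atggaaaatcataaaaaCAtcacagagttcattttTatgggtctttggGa

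Olfr1196 was lower in GFP+ cells in both sorts, by -2.21 ± 0.36 in the odor and -2.47 ± 0.36 in the vehicle pools (limma, adjusted p = 0.000186 and 5.61e-05). Olfr1197, with the same 50 bases, was at -0.84 ± 0.25 and -0.70 ± 0.25 and passed in the odor sort alone (adjusted p = 0.0211 and 0.054). Olfr1200 was at 0.62 ± 0.24 in the odor and -0.76 ± 0.24 in the vehicle pools and passed in the vehicle sort alone (adjusted p = 0.0694 and 0.0293). These calls near the threshold turned on single arrays. The odor sort call of Olfr1197 was lost without odor GFP- replicate 1 or 3 or odor GFP+ replicate 3 (adjusted p = 0.0538, 0.0572 and 0.0757), and its vehicle sort difference passed without vehicle GFP+ replicate 1, at -0.98 (adjusted p = 0.00253). The vehicle sort call of Olfr1200 was lost without vehicle GFP- replicate 1, 2 or 3 or vehicle GFP+ replicate 2 or 4 (adjusted p = 0.0535 to 0.0873), and its odor sort difference passed without odor GFP+ replicate 3, at 0.74 (adjusted p = 0.0493). Over all 29 pairs of receptors that share at least 45 of the first 50 coding bases, the median gap between the vehicle sort differences was 1.71, against 1.25 over 334 less similar pairs of the same family and 1.73 over 8415 pairs of different families. Near-identical starts thus did not go with closer sort differences than other pairs had, and pairs share members.

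**Figure D4:**
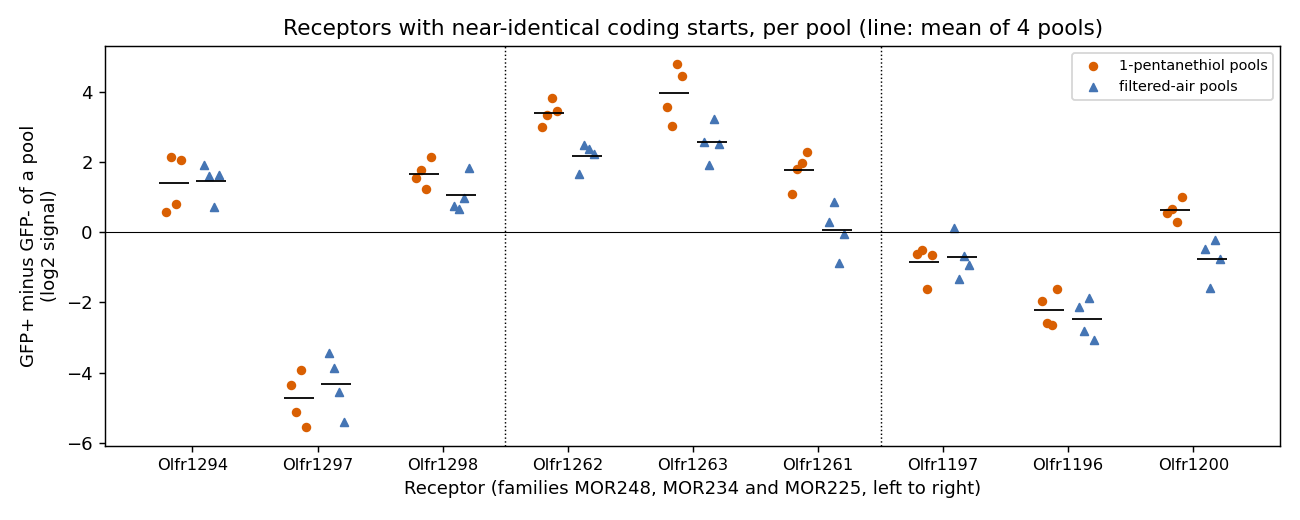
GFP+ minus GFP- difference (log2 signal) of 9 receptors with near-identical coding starts, in sets of 3 by family; circles are the 4 1-pentanethiol pools, triangles the 4 filtered-air pools, and lines their means. Olfr1297 lies below -3 in all 8 pools while Olfr1294 and Olfr1298 lie above 0, and the odor pools of Olfr1261 and Olfr1262 lie above their vehicle pools.

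The second question is whether the odor changed the receptors within a fraction or changed the sort difference. In GFP+ cells, 0 of the 236 receptors passed for odor against vehicle, where 0.0766% of all probe sets did. In GFP- cells 0 passed, against 0.0495%, and for the change of the sort difference (odor sort difference minus vehicle sort difference) 0 passed, against 0.063%. These counts follow from the choice of members. With the 8 left-out receptors added, 3 were higher with odor in GFP+ cells, 3 lower in GFP- cells and 5 had a larger sort difference, so the counts of 0 are no finding about the region. At an unadjusted limma p under 0.05 there were 38 receptors in GFP+ cells (16.1%, against 7.15% of all probe sets), 12 in GFP- cells (5.08%, against 2.61%) and 30 for the change of the sort difference (12.7%, against 4.65%). Of these 30, 22 were positive and 8 negative, where over all probe sets 705 were positive and 328 negative. Among the 836 receptors outside the range the unadjusted shares were 7.06% in GFP+ cells, 7.89% in GFP- cells and 8.73% for the change. The share in GFP- cells was thus lower here than among other receptors.

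The receptor with the smallest p in GFP+ cells and for the change of the sort difference was Olfr1137, which has no family name here. It had 8.77, 9.11, 8.26 and 9.21 in odor GFP+ and 8.77, 8.47, 9.15 and 8.30 in odor GFP- cells, and 7.59, 7.49, 7.36 and 7.17 in vehicle GFP+ and 8.47, 9.31, 9.80 and 8.85 in vehicle GFP- cells. All odor GFP+ arrays were above all vehicle GFP+ arrays, while the GFP- arrays of both exposures overlapped. The odor minus vehicle difference was 1.43 ± 0.26 in GFP+ cells (limma, adjusted p = 0.0563) and -0.43 ± 0.26 in GFP- cells, and the change of the sort difference was 1.87 ± 0.37 (adjusted p = 0.135), so none passed. Without odor GFP+ replicate 3 it passed in GFP+ cells, at 1.62 (adjusted p = 0.0298). The change of its sort difference passed without odor GFP+ replicate 3, at 2.06, and without vehicle GFP- replicate 1, at 2.08 (adjusted p = 0.0441 and 0.038).

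The other receptors with the smallest p in GFP+ cells were Olfr1053, Olfr1200, Olfr1260 and Olfr1186, with odor minus vehicle differences of 0.60, 1.00, 1.02 and 1.47 (limma, adjusted p = 0.191, 0.287, 0.401 and 0.414). Olfr1053 was under the nonspecific level in all 4 groups. In GFP- cells they were Olfr1209, Olfr1263, Olfr1232, Olfr1195 and Olfr1262, with differences of -1.21, -1.26, -1.01, -1.11 and -0.66 (adjusted p = 0.105, 0.25, 0.28, 0.535 and 1). Olfr1209, of family MOR230, had 10.94, 10.37, 10.25 and 10.25 in odor GFP- against 11.76, 11.67, 11.48 and 11.74 in vehicle GFP- cells. These groups did not overlap, and its GFP+ arrays, at 12.56 to 13.65 with odor and 12.63 to 13.57 with vehicle, did.

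The sort difference was larger with odor by more than 1 for 21 receptors (8.9%, against 0.392% of all probe sets) and smaller by more than 1 for Olfr1002 and Olfr986, 2 of the 236 receptors (0.847%, against 0.0946%), at -1.24 ± 0.69 and -1.69 ± 0.47 (limma, adjusted p = 0.999 and 0.64). Among the 836 receptors outside the range 31 (3.71%) were over 1. Over all 236 receptors the change had a median of -0.11, with 93 above 0 and 143 below 0, so the receptors as a whole did not shift upward. Of the 21, 18 lay among the 62 receptors from Olfr1186 to Olfr1265, a range whose ends are receptors of the 21 and which was drawn after seeing these values. In 17 of the 21 the 4 odor pools lay above the 4 vehicle pools without overlap. The pools did not overlap, in either direction, for 27 of all 236 receptors (11.4%, against 3.31% of all probe sets). In 18 of the 21 the signal was both higher with odor in GFP+ cells and lower in GFP- cells by the group means. A GFP+ rise and a GFP- fall each enlarge the change by which the 21 were chosen. The counts of 17 and 18 thus follow in part from that choice. No share over all probe sets is given for either, and nothing is read from them. None of the 21 passed the threshold. The change of Olfr1243 was 1.31 with all arrays and 0.37 without vehicle GFP+ replicate 4, that of Olfr1205 1.32 and 0.76 without odor GFP- replicate 4, and that of Olfr1202 1.05 and 0.68 without odor GFP- replicate 4. The values of adjacent receptors correlated with r = 0.317 for this change and with r = 0.225 at 2 steps.

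Olfr1189, the only receptor of family MOR237 among them, had the highest value. Its GFP+ minus GFP- difference was 1.94, 1.94, 2.17 and 3.01 in odor pools 1 to 4 and 0.43, -0.76, 0.24 and 0.47 in vehicle pools 1 to 4. The pools did not overlap, and the change was 2.17 ± 0.48 (limma, adjusted p = 0.241). Olfr1186 had 1.46, 1.01, 0.93 and 2.10 in the odor and -0.34, -0.33, -1.41 and -0.41 in the vehicle pools, a change of 2.00 ± 0.55 (adjusted p = 0.64); its vehicle GFP+ mean was under the nonspecific level, and with each array raised to that level the change was 1.71. Olfr1199 had 2.04, 2.85, 2.46 and 2.86 in the odor and 1.22, 1.59, -0.12 and 0.49 in the vehicle pools, a change of 1.76 ± 0.39 (adjusted p = 0.249), which passed without odor GFP- replicate 1, at 2.05 (adjusted p = 0.0216). All the odor pools of these receptors lay above their vehicle pools.

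By family, the change of the sort difference was most one-sided in MOR230 and MOR234. MOR230, with 6 receptors from Olfr1186 to Olfr1209, had a median of 1.40 and a range of 0.18 to 2.00, with 5 of 6 over 1; its odor minus vehicle medians were 0.30 in GFP+ and -1.02 in GFP- cells. MOR234 had a median of 1.41 and a range of 1.22 to 1.72. Between families lay 39.3% of the variance of the change, over the same 206 receptors as above, against the 15.1% that unrelated names give on average. Of the receptors left out by the rule, Olfr1183 and Olfr1206 carry the MOR230 name, Olfr1212 and Olfr1213 MOR233, Olfr1279 and Olfr1284 MOR245, and Olfr1093 MOR179. The MOR233 and MOR245 receptors kept here had medians of 0.11 and -0.32 for the change, and those of MOR179 -0.30.

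The 8 receptors left out had changes of 4.32 for Olfr1183, 3.34 for Olfr1193, 2.94 for Olfr1279, 2.85 for Olfr1284, 2.83 for Olfr1212, 1.77 for Olfr1206, 0.51 for Olfr1093 and 0.16 for Olfr1213. Their neighbours in gene order varied. Olfr1189 and Olfr1195, on either side of Olfr1193, had 2.17 and 1.49, Olfr1204 beside Olfr1206 had 1.55, Olfr1280 beside Olfr1279 had 1.29, and Olfr1211 beside Olfr1212 had 0.79. Olfr1182 and Olfr1184, on either side of Olfr1183, had -0.20 and 0.04, Olfr1208 beside Olfr1206 had -0.72, Olfr1278 beside Olfr1279 had 0.33, and Olfr1283 and Olfr1286 beside Olfr1284 had -0.02 and 0.62. Olfr1214 beside Olfr1213 had 0.38, and Olfr1090 and Olfr1094 beside Olfr1093 had -0.49 and -0.19. None of these neighbours passed for this change.

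**Figure D5:**
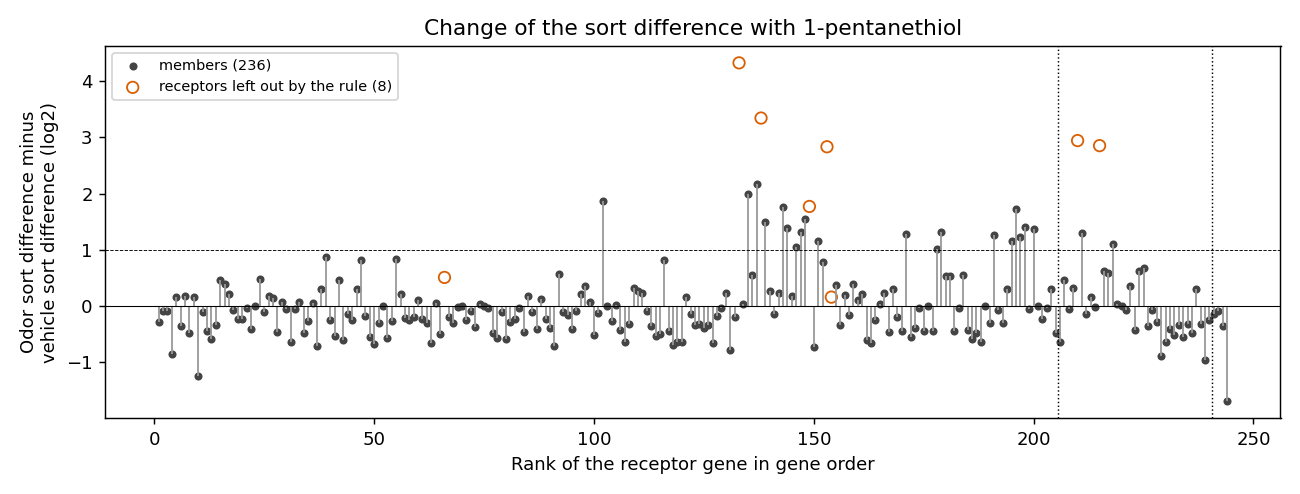
Odor sort difference minus vehicle sort difference (log2) of the 236 receptors in gene order, with the 8 receptors left out by the rule as open circles; dotted lines mark the start of the second chromosome 2 stretch and of chromosome 9, and the dashed line a difference of 1. Of the 21 filled points above 1, 18 lie between Olfr1186 and Olfr1265, a range drawn from these values, and none passes the threshold.

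Receptor genes have upstream regions with sites for homeodomain and Olf/EBF proteins, of which Lhx2 and Ebf1 are the best known in these neurons. RefSeq windows of 250 bases before and 50 after the start were found for 197 of the 236 receptors, but 133 of these receptors have gene models that begin at the ATG and hold no upstream exon. Of 25 receptors with models over 2000 bases, 22 had a window, and for 9 of these the window's start is itself an ATG. For the other 13, 15 windows were read, over the 250 bases before the start. The homeodomain core TAATTA, which reads the same on both strands, was in 4 of the 15 (26.7%, against 4.84% of 32851 windows of all genes), and the Olf/EBF core CCCNNGGG, likewise palindromic, in 2 of 15 (13.3%, against 11.82%). The windows had a median GC content of 33.2%, against 52.4% for all, and the part of base composition in these shares was not tested. The motifs were searched by their letters, and a match is no sign of binding.

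Windows of Olfr1157 (GRCm38.p6, chr2:87968208-87968507, minus strand) and Olfr1030 (chr2:85979062-85979361, plus strand) are shown because both hold TAATTA, in capitals, and the receptors sorted in opposite directions. Olfr1157, of family MOR174, had differences of 2.01 ± 0.28 in the odor and 2.51 ± 0.28 in the vehicle pools (limma, adjusted p = 3.49e-05 and 2.84e-06), while Olfr1030 was lower in both sorts.
Olfr1157: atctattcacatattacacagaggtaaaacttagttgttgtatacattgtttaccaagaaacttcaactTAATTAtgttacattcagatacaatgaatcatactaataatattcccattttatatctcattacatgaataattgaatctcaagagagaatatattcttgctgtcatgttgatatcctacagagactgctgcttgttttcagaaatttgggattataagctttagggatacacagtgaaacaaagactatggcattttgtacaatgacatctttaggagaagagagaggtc
Olfr1030: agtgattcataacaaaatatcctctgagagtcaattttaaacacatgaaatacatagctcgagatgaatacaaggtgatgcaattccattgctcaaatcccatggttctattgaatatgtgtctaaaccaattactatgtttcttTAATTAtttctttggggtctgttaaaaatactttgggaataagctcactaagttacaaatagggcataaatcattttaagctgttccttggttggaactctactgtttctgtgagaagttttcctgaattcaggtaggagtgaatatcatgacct

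Genes that take part in receptor choice and trafficking were counted in the same way. Of 16 on the list, 0 were higher and 3 lower in GFP+ cells in the odor sort, where 11.3% and 11.9% of all probe sets were, and 1 was higher and 2 lower in the vehicle sort, where 9.34% and 11.8% were. These counts are small and near those shares, and nothing is read from them about the list, whose medians were 0.02 and 0.07 against 0.13 and 0.11 over all probe sets. Lbr, the lamin B receptor, an inner nuclear membrane protein that olfactory neurons lose as they mature, was lower by -1.89 ± 0.23 in both sorts (limma, adjusted p = 8.68e-06 and 8.33e-06). Cbx5, a heterochromatin protein, was lower by -0.62 ± 0.16 in the odor and -0.45 ± 0.16 in the vehicle sort (adjusted p = 0.00796 and 0.0487). Kdm1a, a histone demethylase needed for receptor choice, was lower in the odor sort alone, by -0.35 ± 0.11 (adjusted p = 0.0336, and 0.103 in the vehicle sort), and Reep1, which helps receptors reach the cell surface, was higher in the vehicle sort alone, by 0.54 ± 0.16 (adjusted p = 0.0222, and 0.182 in the odor sort). Between the exposures 0 of the 16 passed within the GFP+ fraction (0.0766% of all probe sets), within the GFP- fraction (0.0495%) or for the change of the sort difference (0.063%).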

How the data were processed

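RNA of GFP+ and GFP- cells from 8 pools of mice was measured on 16 Clariom S arrays. The authors deposited log2 signals of probe sets; per the submitters' processing notes, these come from Affymetrix Expression Console. Sources used here do not give its version, algorithm or genome build. No array left the fit and no further scaling was applied. limma 3.58.1 in R 4.3.3 fitted the 4 group means to all 16 arrays (empirical Bayes, total degrees of freedom 16.66) over 22206 probe sets outside the control classes, with symbols from the platform annotation (19572 with 1 symbol, 2634 with none). Tests were two-sided with Benjamini-Hochberg adjustment at 0.05. The comparisons were GFP+ minus GFP- in odor and in vehicle pools, odor minus vehicle within each fraction, and the difference between the sorts. The nonspecific level is the median of 5222 negative control entries. The number of arrays limits the precision, and replicates are separate pools of mice. The fit was tested on simulated data.

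The receptors, gene lists and tests were chosen with earlier results of these data known. Named are the 10 highest and 10 lowest receptors past the threshold without overlap in each sort, the 5 smallest p of each comparison where fewer passed, the 6 highest mean signals, and the genes beside each left-out receptor. Protein sequences were not used here, so the planned comparison of proteins was replaced after seeing the data by one of the first 50 coding bases; the sequences shown and Olfr1157 and Olfr1030 were picked after their values were seen.

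Deviations from group means correlated with r from 0.0119 to 0.224 between the fractions sorted from 1 pool of animals. Between same-numbered odor and vehicle arrays r was 0.186 to 0.29 in GFP- and 0.0311 to 0.256 in GFP+ cells; the values given come from the fit without any block, and fits with the pool as a block (the fractions of a pool come from the same animals) and with the number as a block in both fractions and in GFP- arrays alone were alternatives.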

Additional observations from a re-analysis of the deposited data

Results flagged for a closer look

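Over 246 groups of 4 arrays, 1 array stood far from the other 3 in 7 (2.85%), fewer than the 5% or so that chance gives, so they are listed as values only. In vehicle GFP- replicate 2, Olfr1151 was at 7.55 (others 8.51 to 8.55) and Olfr1094 at 6.67 (6.98 to 7.04). In odor GFP+ cells, Olfr1178 was at 3.96 in replicate 4 (7.68 to 8.31) and Olfr1256 at 11.42 in replicate 3 (11.75 to 11.81). In odor GFP- cells, Olfr1209 was at 10.94 in replicate 1 (10.25 to 10.37) and Olfr1208 at 9.67 in replicate 3 (10.83 to 10.96). The median over the receptors was 9.97 in vehicle GFP+ replicate 2 (10.20 to 10.25), the array with the high negative controls.

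For Olfr1186, Olfr1200 and Olfr1260 the GFP+ minus GFP- difference was above 0 in all 4 odor pools and below 0 in all 4 vehicle pools. The odor sort minus vehicle sort differences were 2.00, 1.38 and 1.16, and limma's test of that difference did not pass (adjusted p = 0.64, 0.42 and 0.878). Olfr1186, Olfr1200 and Olfr1260 were picked among the receptors by this pattern of signs. The share of all probe sets with the same pattern is not given, so the signs are listed as a description only.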

How the results depend on the processing

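Of 1783 values recomputed under other settings, 1690 kept their direction and side of the threshold or moved little. Equal array medians shifted all probe sets together, by 0.33 at the median in the odor sort and 0.35 in the vehicle sort. The receptor medians were then 0.94 and 0.73 and the split of calls was 137 higher and 58 lower, and 127 and 53 (70.3% and 70.6% higher, against 60.8% and 62.7%). With receptor medians set equal, the vehicle sort median was 0.15 with 87 higher and 69 lower, 2 receptors were higher with odor in GFP+ cells (Olfr1137 and Olfr1200), 2 lower in GFP- cells (Olfr1263 and Olfr1209) and 2 had a larger sort difference (Olfr1189 and Olfr1200). The median of the vehicle sort was 0.55 among the 214 receptors above the negative controls, and 0.48 without vehicle pool 2, an alternative chosen after seeing the data. In GFP+ cells a mean-variance trend gave 1 higher receptor (Olfr1137). In GFP- cells array weights gave 2 lower receptors (Olfr1209 and Olfr1232) and a fit of only the arrays compared 1 (Olfr1209). With the 8 left-out receptors added, 3 were higher in GFP+ cells, 3 lower in GFP- cells and 5 had a larger sort difference.

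Leaving out 1 array at a time gave 91 to 105 higher and 59 to 64 lower receptors in the odor sort, and 89 to 97 higher and 53 to 64 lower in the vehicle sort, with medians of 0.52 to 0.66 and 0.33 to 0.48. The count of larger sort differences was 0 to 1 (Olfr1199 without odor GFP- replicate 1, Olfr1137 without odor GFP+ replicate 3 or vehicle GFP- replicate 1), and that of receptors higher with odor in GFP+ cells 0 to 1 (Olfr1137 without odor GFP+ replicate 3). Values near 0 changed sign: the change of the sort difference of Olfr1283 was 0.04 with quantile normalization, 0.15 with receptor medians equal and 0.10 with array weights, that of Olfr1182 0.05 with array weights and 0.02 without vehicle pool 2, and the vehicle sort difference of Olfr1222 -0.17 with receptor medians equal. Over single arrays left out they ranged over -0.22 to 0.14 for Olfr1283, -0.69 to 0.16 for Olfr1182, -0.34 to 0.38 for Olfr1184, -0.07 to 0.68 for Olfr1278 and -0.03 to 0.20 for Olfr1222. The cause of these changes was not tested. With the pool of mice as a replicate block, 111 receptors were higher and 68 lower in the odor sort, 106 and 67 in the vehicle sort, and 0 passed for the sort difference; the replicate number as a block gave 0 in both fractions, also in the GFP- arrays alone, a fit added after seeing the data. The blocks changed no count by over 1.5 times. No symbol had several probe sets, so that alternative changed nothing.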
